A study of Homo sapiens with 12 samples.

Results

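Human chromosome 19 carries a dense collection of zinc finger genes, and 225 of them are described here: the genes on chromosome 19 whose symbol is ZNF followed by a number, with or without 1 letter, and that had a row in both deposited tables. They made up 225 of 18962 genes found in both tables. Another 6 genes that meet the rule had a row in the selinexor table only, and 3 had a row in the knockdown table only. These were left out.

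RNA had been sequenced from IMR5, an established human neuroblastoma line with amplification of the oncogene MYCN, which all groups share. One arm was treated for 24 h with selinexor at 100 nM, a drug that blocks XPO1, the receptor that carries many proteins out of the nucleus. Its controls received the solvent DMSO, for a time not stated in the labels. The other arm was nucleofected with an XPO1 siRNA (number 10 in the labels) or a control siRNA and harvested at 72 h. Each of the 4 groups held 3 libraries. Nothing in the labels ties replicates to separate cultures, and the p-values therefore cover the spread between these libraries alone, which may be technical.

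ZNF genes of this family encode proteins with rows of zinc fingers, each finger contacting a few bases of DNA, and most carry a KRAB domain at the start of the protein. The KRAB domain binds TRIM28, a scaffold that brings in the histone methyltransferase SETDB1, heterochromatin proteins and deacetylases, so that the bound DNA is silenced. Many members bind transposable elements, and they arose by repeated duplication of neighbouring genes, which is why they stand in clusters of close relatives.

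Sorted by start, 211 members fell into 8 clusters of at least 5 members with no gap of more than 1 Mb, and 14 lay outside them. In hg19 coordinates on chromosome 19, cluster A ran from 7069455 to 9903857 with 14 members, B from 11594242 to 12750913 with 25, C from 19779605 to 24312655 with 27 and D from 35168544 to 35454954 with 5. Cluster E ran from 36673188 to 38307941 with 26 members, F from 44029649 to 45004577 with 21, G from 52074551 to 54083524 with 37 and H from 55987699 to 58992598 with 56. Of all members, 127 lay on the plus strand and 98 on the minus strand. In GENCODE 29, 218 members had a coding sequence. A KRAB-like stretch was found in 166 of these and not in 52, some of which may hold a box that the pattern missed. The number of fingers had a median of 12 and reached 31 in ZNF91.

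Promoter motifs differed in frequency between clusters. RefSeq gave a window of 250 bases before and 50 bases after the start for 194 members (GRCh38.p14, a build other than that of the deposited files). The CCAAT box (CCAAT, either strand) was in 21 of 23 windows of cluster B and in 22 of 22 of cluster C, against 53.1% of the members, 36.4% of 15843 windows of protein-coding genes and 35.7% of all 27305 windows. Cluster H had it in 32 of 51 windows and cluster D in 2 of 4, and clusters A, E, F and G in 3 of 13, 5 of 24, 4 of 16 and 8 of 29. The ETS motif (CCGGAAG, either strand) was in 2 of 23 windows of cluster B and 16 of 22 of cluster C, 19 of 29 of cluster G and 32 of 51 of cluster H, against 46.9% of the members, 14.2% of protein-coding windows and 10.7% of all windows. GC boxes (GGGCGG, either strand) were in 68.0% of the members' windows, 58.5% of protein-coding windows and 44.6% of all.

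The 6 windows below belong to genes that lead the results, and for ZNF763 no window is printed. ZNF433, ZNF441 and ZNF625 of cluster B rose in both comparisons, ZNF724P and ZNF492 of cluster C had the largest falls with selinexor, and ZNF580 of cluster H had the smallest p among the 6 members with a higher effect of selinexor than of knockdown. Each window is printed from 5′ to 3′ on the strand of its gene, with its GRCh38.p14 position and with CCAAT boxes and ETS motifs of either strand in capitals.
ZNF433 (chr19:12035630-12035929, minus strand): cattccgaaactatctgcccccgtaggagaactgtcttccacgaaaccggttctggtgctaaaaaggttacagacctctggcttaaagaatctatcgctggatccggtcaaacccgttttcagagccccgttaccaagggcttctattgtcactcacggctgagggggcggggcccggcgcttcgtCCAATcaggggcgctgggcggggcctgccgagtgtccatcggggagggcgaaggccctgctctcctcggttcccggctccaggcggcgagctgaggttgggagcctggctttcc
ZNF441 (chr19:11766750-11767049, plus strand): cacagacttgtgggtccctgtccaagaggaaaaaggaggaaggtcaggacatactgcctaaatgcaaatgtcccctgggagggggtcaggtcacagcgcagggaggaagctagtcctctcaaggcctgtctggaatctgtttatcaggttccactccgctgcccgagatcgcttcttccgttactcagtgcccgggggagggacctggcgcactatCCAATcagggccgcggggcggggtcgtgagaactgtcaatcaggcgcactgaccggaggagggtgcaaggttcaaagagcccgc
ZNF625 (chr19:12156685-12156984, minus strand): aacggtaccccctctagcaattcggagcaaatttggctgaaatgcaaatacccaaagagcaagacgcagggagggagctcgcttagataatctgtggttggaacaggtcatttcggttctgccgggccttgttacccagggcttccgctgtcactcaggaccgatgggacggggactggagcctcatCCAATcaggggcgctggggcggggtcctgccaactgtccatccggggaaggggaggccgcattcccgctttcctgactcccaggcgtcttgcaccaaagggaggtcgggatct
ZNF724P (RefSeq symbol ZNF724, chr19:23250345-23250644, minus strand): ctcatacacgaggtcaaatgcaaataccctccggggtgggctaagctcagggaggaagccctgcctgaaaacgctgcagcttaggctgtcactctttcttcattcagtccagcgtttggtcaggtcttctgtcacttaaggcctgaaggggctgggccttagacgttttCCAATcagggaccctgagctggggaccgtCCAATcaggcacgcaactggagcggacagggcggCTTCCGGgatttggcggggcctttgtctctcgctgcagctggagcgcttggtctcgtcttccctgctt
ZNF492 (chr19:22634074-22634373, plus strand): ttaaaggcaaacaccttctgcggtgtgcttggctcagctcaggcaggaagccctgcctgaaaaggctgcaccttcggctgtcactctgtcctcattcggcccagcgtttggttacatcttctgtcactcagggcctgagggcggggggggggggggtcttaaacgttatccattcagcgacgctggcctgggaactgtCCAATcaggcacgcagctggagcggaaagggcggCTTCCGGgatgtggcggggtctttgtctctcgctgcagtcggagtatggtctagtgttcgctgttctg
ZNF580 (chr19:55640752-55641051, plus strand): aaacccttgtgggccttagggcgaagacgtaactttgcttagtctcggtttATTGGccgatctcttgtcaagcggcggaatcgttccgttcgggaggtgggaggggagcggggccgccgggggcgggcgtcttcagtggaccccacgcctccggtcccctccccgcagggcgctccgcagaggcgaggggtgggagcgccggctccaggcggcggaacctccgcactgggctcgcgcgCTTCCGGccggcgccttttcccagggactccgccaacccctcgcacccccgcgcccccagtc

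In ZNF433, ZNF441 and ZNF625 the CCAAT box began 64, 34 and 63 bases before the start, and no ETS motif was found. ZNF724P and ZNF492 each held a CCAAT box that began 52 bases before the start and, on the opposite strand, an ETS motif 18 bases before it. ZNF724P held a further CCAAT box 81 bases before the start. In ZNF580 the CCAAT box lay 199 bases before the start on the opposite strand, and an ETS motif, also on the opposite strand, 12 bases before it. The longest run shared by ZNF433 and ZNF625 had 19 bases and opened at the base before the CCAAT box (tCCAATcaggggcgctggg). A longer form of the box, CCAATCAG on either strand, was searched after these windows had been seen. It stood in 20 of 23 windows of cluster B, 22 of 22 of cluster C, 1 of 16 of cluster F and 1 of 29 of cluster G. No window of clusters A, D, E and H held it (0 of 13, 4, 24 and 51). Outside clusters 4 of 12 windows held it, and of all 27305 windows 4.16%. Such matches describe letters in these windows and are not measured binding sites, and members of a cluster share ancestry.

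Values below are the authors' normalized read counts, which are not per gene length, so levels are compared within a gene only. A gene is said to have risen or fallen where limma on log2(value + 1) gave a Benjamini-Hochberg adjusted p under 0.05 over all genes tested in the table. Fold changes are on that scale, which understates changes of low genes. Genes needed a mean value of 10 or more in the table, which 222 members reached in the selinexor table and 220 in the knockdown table. In bulk RNA, fewer cells of a type and less RNA per cell cannot be told apart.

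Estimated from the steps of the low values, depth ranged from 39.5 to 40.9 M reads in DMSO libraries, 26.8 to 33.8 M with selinexor, 40.6 to 54.0 M with control siRNA and 33.5 to 55.8 M with XPO1 siRNA. XPO1 stood at 18809 ± 209.8 with control siRNA and 4344 ± 74.0 with XPO1 siRNA (mean ± SD, n = 3 each), a log2 fold change of -2.11 (limma adjusted p = 2.9e-14). In the selinexor table XPO1 averaged 18380.4 ± 507 in DMSO libraries and 19741 ± 3697 in treated ones, a change of 0.09 (limma adjusted p = 0.62) that became 0.25 (adjusted p = 0.0019) without selinexor replicate 1. That library stood apart: its log2 values correlated at 0.974 and 0.977 with the other selinexor libraries, which correlated at 0.991 with each other, and every other pair within a group reached at least 0.992. RN7SL RNAs, abundant RNAs of the signal recognition particle, took 9.40% to 9.72% of values with DMSO and 12.6% to 15.96% with selinexor, and 12.6% to 13.1% with control siRNA and 10.8% to 12.4% with XPO1 siRNA. The ranges did not overlap in either table. Neuroblastoma markers such as HAND2 (12098 ± 414 with DMSO) were high, but TH was at 5.41 ± 2.15 with control siRNA. Of the markers of other cells, SOX10, CD74, KDR and CDH5 had group means of at most 79.0, and fibroblast genes ranged from 3.62 for COL1A2 to 1045 for COL1A1. Of 3 fibroblast genes tested, 2 fell with selinexor and 3 in the knockdown, where 26.3% and 28.6% of all genes fell. Of 9 neuroblastoma markers tested, 7 rose in each comparison, where 22.9% and 25.9% of all genes rose. The part of these shifts in the results was not tested.

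The ZNF genes of chromosome 19 were broadly higher after XPO1 knockdown. Of 220 members tested, 137 (62.3%) rose and 8 (3.64%) fell, where over all 17616 genes tested 25.9% rose and 28.6% fell. The members' median log2 fold change was 0.26, beside 0.002 for all genes. Rises made up from 42.3% of the genes tested in cluster C to 80.8% in cluster E, while outside clusters 3 of 14 (21.4%) rose, below the 25.9% of all genes. Summed over members, values took 0.322% to 0.337% of the libraries with control siRNA and 0.408% to 0.416% of those with XPO1 siRNA, ranges that did not overlap. The RN7SL share, part of the same totals, was lower with XPO1 siRNA, and its part in this result was not tested. The median log2 difference from the control mean was 0.28, 0.26 and 0.24 in the 3 XPO1 siRNA libraries.

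Selinexor gave rises and falls in nearly equal number. Of 222 members tested, 49 (22.1%) rose and 39 (17.6%) fell, beside 22.9% and 26.3% of all 18128 genes tested, with a median of 0.08 for the members and -0.008 for all genes. This balance moved with the processing. Without selinexor replicate 1 there were 85 rises and 47 falls, where 27.9% of all genes rose and 33.2% fell. With libraries scaled to equal totals there were 64 and 33 (all genes 25.6% and 23.0%) and a median of 0.15. With each library's trend on transcript GC content removed there were 88 and 38 of 221 (all genes 25.9% and 34.0%) and a median of 0.17. The members' transcripts had a median GC content of 42.3% against 48.2% over all genes matched. By library, the members' median log2 difference from the DMSO mean was -0.10 in selinexor replicate 1 and 0.15 and 0.12 in replicates 2 and 3, so replicate 1 lay on the other side of 0.

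**Figure D1:**
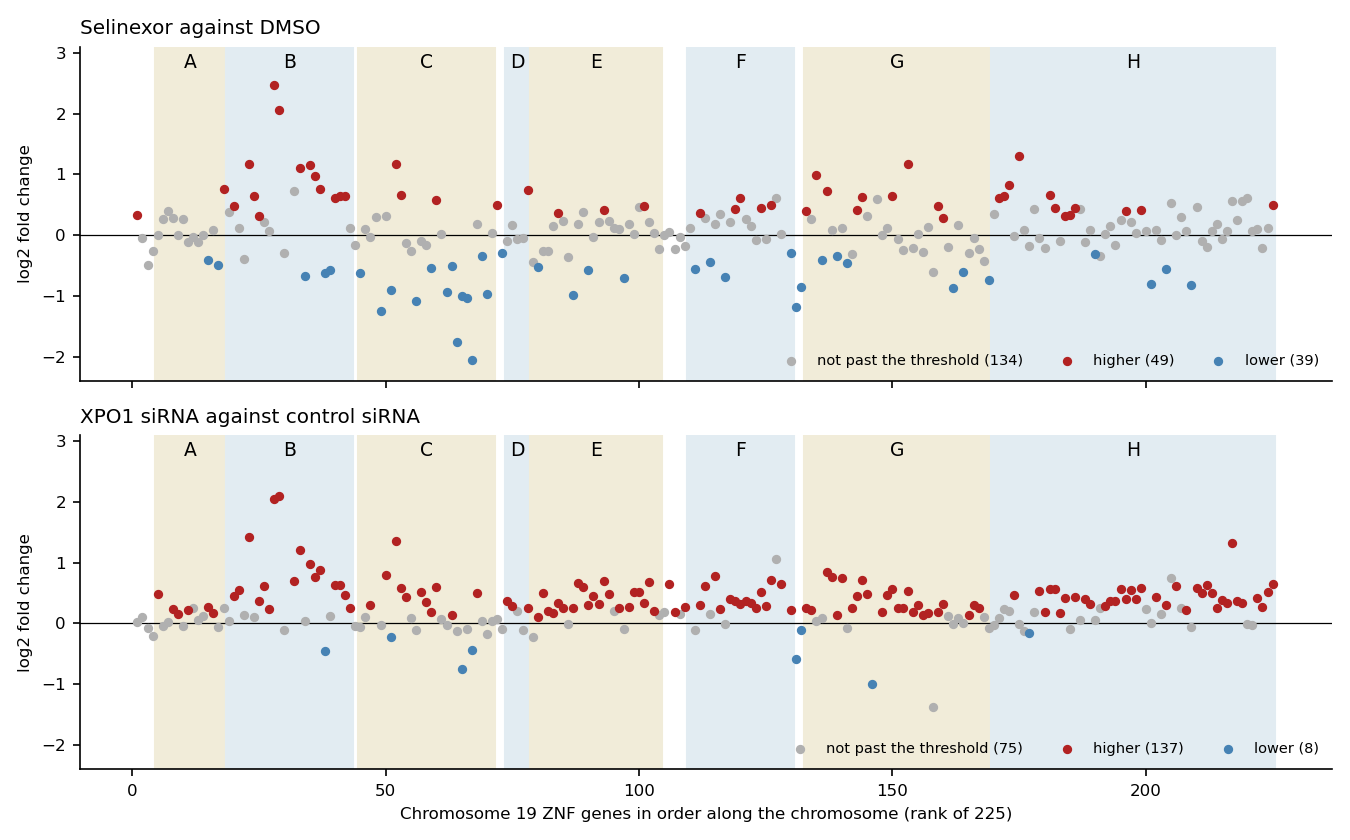
Log2 fold change (vertical axis) of each member tested, in order along the chromosome (horizontal axis, rank of 225), for selinexor against DMSO above and XPO1 siRNA against control siRNA below; shaded bands are clusters A to H and colours give the result of the test. ZNF763 and ZNF433 of cluster B stand above 2 in both panels, cluster C holds 13 genes that fell with selinexor, and 137 genes are higher in the lower panel.

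Rises and falls with selinexor were spread unevenly over the clusters. Cluster B had 13 rises and 3 falls among 24 genes tested, with a median log2 fold change of 0.54. Cluster C had 3 rises and 13 falls among 27, with a median of -0.27. Among 14 and 5 tested, clusters A and D had 1 rise each, with 2 falls and 0 falls. Clusters E, F, G and H, with 26, 20, 36 and 56 tested, had 3, 5, 9 and 12 rises and 4, 4, 6 and 4 falls. Their medians were 0.11, 0.20, 0.01 and 0.09. Over all genes tested 22.9% rose and 26.3% fell, so the shares of rises in F, G and H were near that of all genes. Outside clusters, 2 of 14 rose and 3 fell. Without selinexor replicate 1, clusters E, F and G had 12, 12 and 15 rises and 5, 4 and 10 falls. Of all genes, 27.9% rose and 33.2% fell in that setting.

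In the knockdown, cluster C had the lowest median of the 8 clusters, at 0.08 with 11 rises and 3 falls among 26. Cluster B had the highest, at 0.51 with 17 rises and 1 fall among 24. Clusters E and F had 21 rises among 26 and 15 among 19, with no falls. Clusters G and H had 25 rises among 36 and 36 among 56, with 1 fall each. Clusters A and D had 6 rises among 14 and 3 among 5. Outside clusters, 3 of 14 rose and 2 fell. Of all genes tested, 25.9% rose and 28.6% fell.

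**Figure D2:**
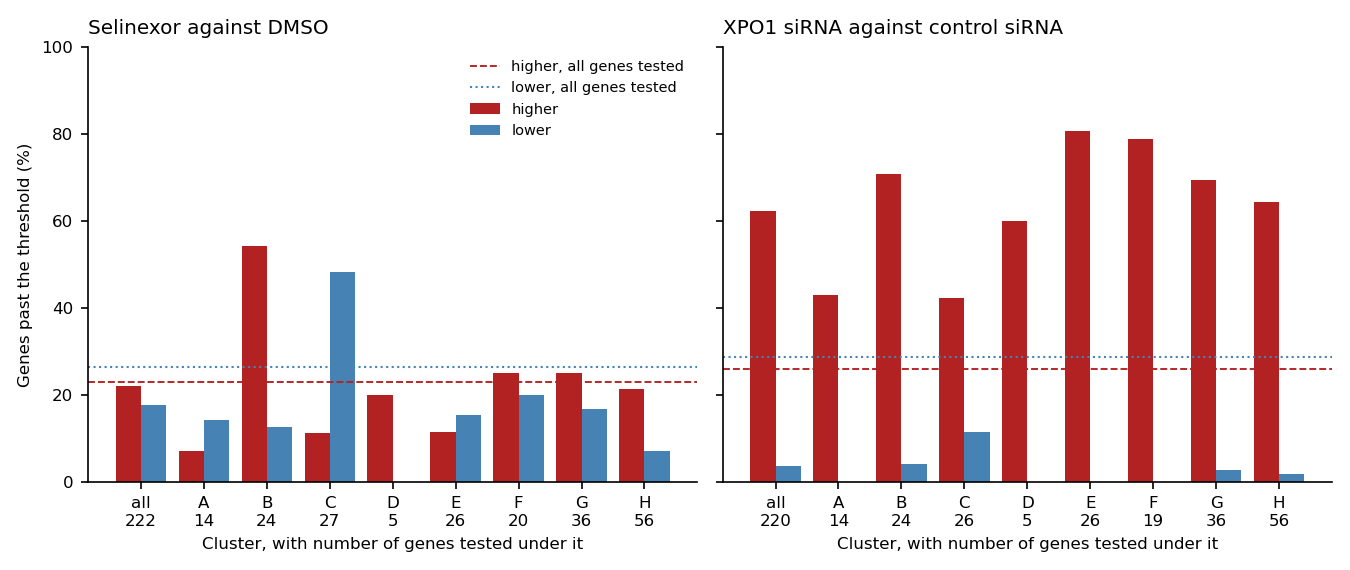
Percentage of genes past the threshold (vertical axis, higher in red and lower in blue) for all members and for each cluster (horizontal axis, with the number tested), with the shares over all genes tested as lines. With selinexor cluster B reaches 54.2% higher and cluster C 48.1% lower, and in the knockdown the share higher is above the 25.9% of all genes in each of the 8 clusters.

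Cluster B held the largest rises of the set. ZNF763 (plus strand, 12035890 to 12091197) stood at 52.1, 68.8 and 85.7 with DMSO and at 330.1, 443 and 378 with selinexor. In the other table it stood at 86.6, 67.8 and 93.1 with control siRNA and at 357, 349 and 324 with XPO1 siRNA. Treated libraries lay far above the controls in both tables, with log2 fold changes of 2.48 (SE 0.196, limma adjusted p = 2.9e-05) and 2.06 (SE 0.123, limma adjusted p = 1.4e-08). Its neighbour ZNF700, which overlaps it on the same strand, had 0.06 with selinexor (limma adjusted p = 0.67) and 0.24 in the knockdown (limma adjusted p = 0.0065).

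ZNF433 (minus strand, 12125547 to 12146557) changed by similar folds in both arms. It was at 148, 154 and 148 with DMSO and 608, 648 and 634 with selinexor, and at 139, 149.7 and 153 with control siRNA and 677, 636 and 586 with XPO1 siRNA. The log2 fold changes were 2.06 (SE 0.0947) and 2.10 (SE 0.0820), and their difference of -0.03 (SE 0.114) did not pass the threshold (limma adjusted p = 0.85). An antisense clone, CTD-2006C1.2, overlaps ZNF433 on the other strand, and how the counting used strand is not given in the sources used here.

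ZNF441 (plus strand, 11877815 to 11894894) rose from 423, 461 and 471 with DMSO to 767, 1221 and 1135 with selinexor, for which the log2 fold change was 1.18, or 1.38 without selinexor replicate 1. With XPO1 siRNA it rose from 402, 468 and 396 to 1105, 1090.5 and 1177, by 1.41. Selinexor replicate 1 was the lowest of the treated libraries, and still above every control. ZNF625 (minus strand, 12251032 to 12267547) went from 379, 403 and 423 to 785, 938 and 868 with selinexor and from 361, 392 and 412 to 918, 847 and 917 with XPO1 siRNA, log2 fold changes of 1.10 and 1.20. ZNF44 (minus strand, 12335501 to 12405703) went from 355, 339 and 357 to 722, 776 and 848 and from 354, 396 and 399 to 743, 723 and 801, log2 fold changes of 1.15 and 0.98. For these 3 genes the groups did not overlap in either table, and the limma adjusted p was at most 6.7e-04 in each comparison.

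ZNF20, whose row overlaps that of ZNF625 on the same strand, shared 71.9% of its transcript's 50-base stretches with other zinc finger genes, so its own value is uncertain. It was at 119 ± 12.6 with DMSO and 217 ± 99.6 with selinexor (limma adjusted p = 0.12), and rose from 132 ± 16.7 to 216 ± 30.9 in the knockdown, with a log2 fold change of 0.70. Without selinexor replicate 1 its log2 fold change with selinexor was 1.20 (limma adjusted p = 1.3e-05).

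Smaller rises in both comparisons were seen for ZNF563 (0.97 with selinexor and 0.76 with knockdown), ZNF442 (0.77 and 0.88), ZNF564 (0.65 and 0.64), ZNF709 (0.61 and 0.63), ZNF490 (0.64 and 0.47), ZNF627 (0.48 and 0.44) and ZNF440 (0.32 and 0.37). ZNF709 and ZNF564 overlap each other on the same strand, and ZNF490 overlaps ZNF791 on opposite strands. In all, 12 of 24 genes of cluster B rose in both comparisons. With selinexor 3 others fell.

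ZNF136 (plus strand, 12273879 to 12300065) fell from 813, 770.3 and 878 with DMSO to 392, 607 and 576 with selinexor, which is -0.67 as a log2 fold change (limma SE 0.163, adjusted p = 0.0097). It was at 755 ± 24.3 with control siRNA and 774 ± 12.6 with XPO1 siRNA, and the difference between the effects passed the threshold (-0.70, limma adjusted p = 0.01). ZNF443 fell with selinexor by a log2 fold change of -0.58. ZNF799 fell in both comparisons (-0.62 and -0.46), though its selinexor call was lost without DMSO replicate 2 (limma adjusted p = 0.066). ZNF443 and ZNF799 shared 33.7% and 19.9% of their stretches with other zinc finger genes, so reads could be split between them. ZNF844 was under the filter in both tables.

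Of 17 other genes tested with selinexor within the span of cluster B, 4 rose and 2 fell, beside 22.9% and 26.3% of all genes. Of 13 tested in the knockdown 4 rose and 2 fell, beside 25.9% and 28.6% of all genes. These are all rows that are not members, whatever their family, and some may overlap members. Their medians were 0.50 with selinexor and 0.06 in the knockdown, beside 0.54 and 0.51 for the members, so with selinexor the medians were close. Across the 24 genes of cluster B, the log2 fold changes of the 2 comparisons had a Pearson correlation of 0.92 (Spearman 0.89). These genes share libraries, are not independent replicates and in part overlap.

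Cluster C held the largest falls with selinexor. ZNF724P (minus strand, 23404401 to 23433193), carried as ZNF724 and as a coding gene in the reference used here, fell from 2454, 2570.5 and 2593 with DMSO to 534, 657 and 638 with selinexor. With control siRNA it was at 2029, 2056 and 2232 and with XPO1 siRNA at 1548, 1594 and 1518. The groups were apart in both tables, but the log2 fold change of -2.06 (limma SE 0.100, adjusted p = 2.5e-06) with selinexor was far larger than the -0.44 (SE 0.0461, limma adjusted p = 3.1e-06) with knockdown. Their difference was -1.62 (SE 0.110, limma adjusted p = 4.0e-07). A row for the small RNA SNORA68, whose listed span joins several loci, covers the rows of this region and is not a neighbour in the usual sense.

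ZNF93, known to repress LINE-1 elements of primates, stood at 1218, 1235 and 1161 with DMSO and 367, 594 and 590.3 with selinexor, which is -1.25 as a log2 fold change (limma SE 0.178, adjusted p = 6.6e-04). In the knockdown table it was at 1039 ± 106 and 1014 ± 28.4, a log2 fold change of -0.03 (limma adjusted p = 0.71). ZNF492 fell with selinexor from 354, 362 and 329.6 to 72.9, 125 and 116 (-1.76 on the log2 scale) and had -0.13 in the knockdown (limma adjusted p = 0.26), with 31.3% of its stretches shared with other zinc finger genes. ZNF714 fell with selinexor from 2907 ± 107 to 1380.4 ± 175 (-1.08), ZNF730 from 366 ± 25.3 to 184 ± 53.4 (-1.03), ZNF681 from 382 ± 26.0 to 197 ± 37.9 (-0.97) and ZNF100 from 1291 ± 24.9 to 676 ± 85.4 (-0.94). None of these 4 passed the threshold in the knockdown, where their log2 fold changes lay between -0.18 and -0.02. In each of ZNF93, ZNF492, ZNF714, ZNF730, ZNF681 and ZNF100 the difference between the effects passed it.

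Falls in both comparisons were seen in ZNF486 (-0.90 with selinexor and -0.23 with knockdown) and in ZNF849P, a gene low at 24.8 ± 6.49 with DMSO (-0.996 and -0.75). Scaling to equal totals ended the knockdown call of ZNF486 (limma adjusted p = 0.092), and calls of ZNF849P were lost when single libraries were left out, with adjusted p up to 0.13.

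Not every gene of the cluster went down. ZNF737 rose from 822, 829 and 854 with DMSO to 1108, 1492 and 1399.9 with selinexor and from 689, 721 and 734 to 1107, 1098 and 1021 with XPO1 siRNA, log2 fold changes of 0.66 and 0.59. ZNF826P, low at 32.5 ± 11.4 with DMSO and 19.1 ± 3.86 with control siRNA, rose by 1.16 and 1.35. ZNF682 rose in the knockdown from 454, 487 and 484 to 786, 819.7 and 869 (0.80, limma adjusted p = 1.5e-07) and had 0.31 with selinexor (limma adjusted p = 0.066). ZNF91, a gene with 31 fingers known to repress SVA retrotransposons, stood at 3445, 3452 and 3575 with DMSO and 3369, 4177 and 4449 with selinexor. That was a log2 fold change of 0.19 (limma adjusted p = 0.19), or 0.30 (adjusted p = 2.2e-04) without selinexor replicate 1. In the knockdown ZNF91 rose from 2915, 3231 and 3022 to 4279, 4302 and 4387 (0.50, limma adjusted p = 2.8e-07).

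**Figure D3:**
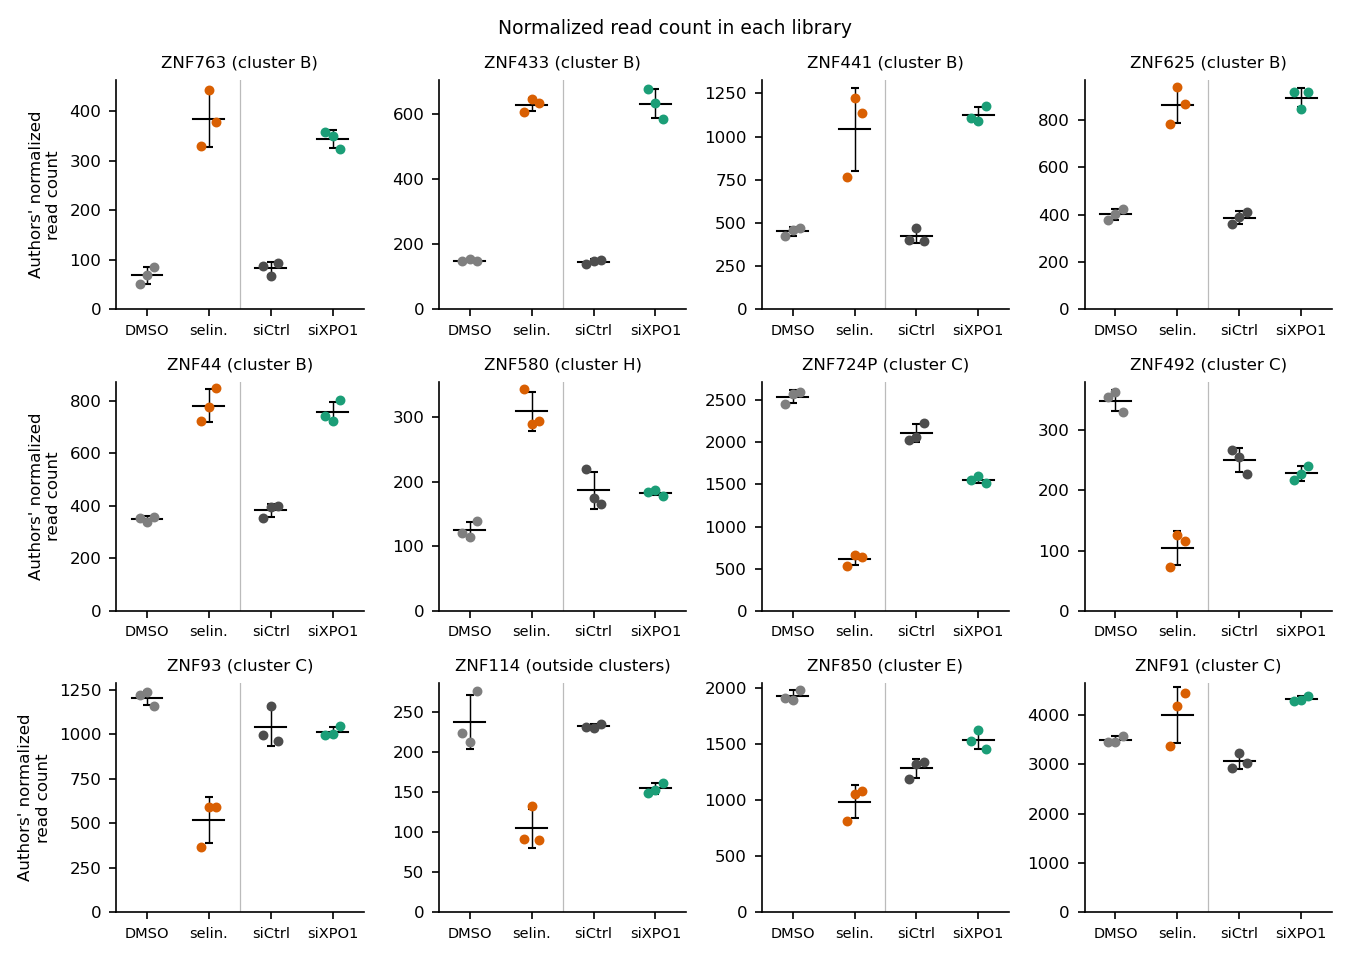
Authors' normalized read count (vertical axis, from 0) of 12 members in each library, with DMSO and selinexor on the left of each panel and control siRNA (siCtrl) and XPO1 siRNA (siXPO1) on the right; points are libraries, and bars are the mean and SD of 3. The 5 cluster B genes of the first panels rise on both sides, while ZNF724P, ZNF492 and ZNF93 fall mainly on the selinexor side.

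The median of cluster C with selinexor changed with the processing. With clusters divided at gaps of 0.5 Mb, the larger part of it (19 genes) had -0.13. With each library's trend on GC content removed, cluster C had 0.03 with 9 rises and 10 falls among 26 genes, so the direction turned, while without selinexor replicate 1 it was -0.14 with 7 rises and 13 falls. In cluster B, removing the GC trend and leaving out selinexor replicate 1 each gave 0.64 with 16 rises and 3 falls. A gap of 0.5 Mb left the median of cluster B at 0.54. By selinexor library, the median log2 difference from the DMSO mean was -0.52, -0.18 and -0.19 in cluster C and 0.27, 0.63 and 0.62 in cluster B for replicates 1, 2 and 3. All 3 libraries lay on the same side of 0 in each of these clusters.

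**Figure D4:**
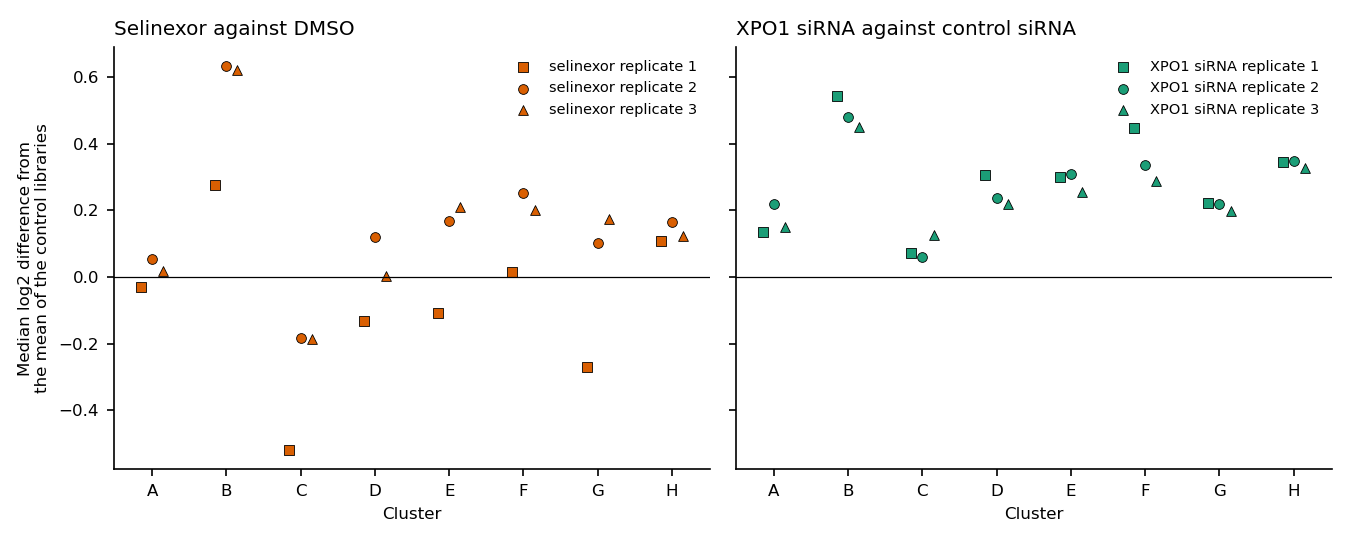
Median log2 difference from the mean of the control libraries (vertical axis) for each cluster (horizontal axis) in each of the 3 selinexor libraries on the left and the 3 XPO1 siRNA libraries on the right, marked by replicate. Selinexor replicate 1 lies lowest in each of the 8 clusters, for example at -0.27 in cluster G beside 0.10 and 0.17, and the XPO1 siRNA libraries all lie above 0.

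Outside clusters B and C, 2 members rose with selinexor by more than 1 on the log2 scale. ZNF580 of cluster H (plus strand, 56146382 to 56154836), with 3 fingers and no KRAB-like stretch, rose from 121, 114 and 139.7 with DMSO to 343, 288 and 294 with selinexor. It was at 219, 174 and 165 with control siRNA and 183, 187 and 178 with XPO1 siRNA. The groups were apart with selinexor (1.30, SE 0.131, limma adjusted p = 1.0e-04) and overlapped in the knockdown (-0.01, limma adjusted p = 0.93), and the difference was 1.32 (limma adjusted p = 1.1e-04). The rows of ZNF581 and CCDC106 overlap ZNF580 on the same strand. ZNF600 of cluster G rose from 103 ± 3.99 to 235 ± 32.9 (1.17) with selinexor and from 153 ± 5.08 to 224 ± 23.2 (0.54) in the knockdown, with a difference of 0.63 (limma adjusted p = 0.012).

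Falls outside cluster C included ZNF114 (plus strand, 48675575 to 48790866), which lies outside the clusters. It fell from 224, 213 and 276 with DMSO to 91.2, 133 and 90.6 with selinexor and from 232, 230.3 and 235 to 149, 153 and 162 with XPO1 siRNA, log2 fold changes of -1.18 and -0.59. ZNF347 of cluster G fell with selinexor from 941 ± 9.08 to 516 ± 40.8 (-0.87), ZNF587B of cluster H from 939.9 ± 55.8 to 531 ± 35.1 (-0.82) and ZNF230 of cluster F from 329 ± 6.64 to 205 ± 12.1 (-0.68). Their knockdown log2 fold changes of -0.01, -0.06 and -0.0036 did not pass the threshold, and each difference between the effects did.

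ZNF473, a protein of histone pre-mRNA processing, fell from 1536, 1625 and 1621 with DMSO to 780.0, 951 and 912 with selinexor (-0.86, limma adjusted p = 2.0e-04). In the knockdown it fell from 1480.2, 1475 and 1534 to 1386, 1380.2 and 1383 (-0.11, limma adjusted p = 0.033), a call that was lost with equal totals (adjusted p = 0.66). The other falls in the knockdown were small or at low values. ZNF787 of cluster H had -0.16 (limma adjusted p = 0.047), lost with equal totals at an adjusted p of 0.35. ZNF534 of cluster G, under the filter in the selinexor table, went from 13.7, 12.7 and 16.9 to 4.43, 8.01 and 8.33 (limma adjusted p = 0.043), also lost with equal totals.

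Members of the remaining clusters rose in the knockdown by less than 1 on the log2 scale in the cases named here. In cluster E, ZNF790 rose from 326, 370.5 and 371 to 590.4, 572 and 539 (0.67) and ZNF585A from 276 ± 18.9 to 447 ± 12.6 (0.70). In cluster G, ZNF880 rose from 383, 407 and 385 to 643, 654 and 637 (0.72) and ZNF432 from 141 ± 13.5 to 254 ± 24.6 (0.84), and both also rose with selinexor (0.62 and 0.73). In cluster H, ZNF776 rose from 582, 575 and 617 to 873, 929.6 and 911 (0.61) and had 0.0045 with selinexor (limma adjusted p = 0.98). The smallest p of clusters A, D and F belonged to ZNF557 (0.49), ZNF302 (0.36) and ZNF226 (0.51). For each of these genes the limma adjusted p in the knockdown was at most 2.3e-05.

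The members with the largest deposited values, which are not per length, were ZNF146, ZNF91, ZNF121, ZNF260 and ZNF562 in both tables. ZNF146, a protein made almost only of fingers, fell from 9466, 9929 and 9768 with DMSO to 5472, 7570.1 and 7421 with selinexor (-0.53, limma adjusted p = 0.0089). Its change in the knockdown was 0.11 (limma adjusted p = 0.017), a call lost without control siRNA replicate 1 (adjusted p = 0.074), without XPO1 siRNA replicate 1 (0.059) and without the intensity trend (0.085). ZNF562 fell with selinexor from 3378 ± 38.6 to 2428 ± 328 (-0.49) and had -0.06 in the knockdown (limma adjusted p = 0.17). ZNF260 rose in the knockdown (0.20) and had -0.27 with selinexor (limma adjusted p = 0.15).

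Setting the comparisons side by side, 39 of 219 members tested in both rose in both, beside 13.0% of all 17308 genes tested in both. These 39 were 79.6% of the members that rose with selinexor and 28.5% of those that rose with knockdown. Of the 219 as a whole, 137 rose with knockdown and 49 with selinexor, so a large overlap with the knockdown list follows in part from its size. Falls in both were seen in 6 members, beside 18.3% of all genes. Another 9 fell with selinexor and rose with knockdown, beside 1.58% of all genes, and 0 did the opposite, beside 0.959%. In 89 the knockdown rise came with no call for selinexor, and 41 passed the threshold in neither. The comparisons share no control libraries. Over the 219 members the log2 fold changes had a Pearson correlation of 0.69 (Spearman 0.60), and over all genes 0.64, where points share libraries. By cluster it was 0.83 in C, 0.59 in E, 0.69 in F, 0.56 in G, 0.18 in H and -0.01 in A.

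**Figure D5:**
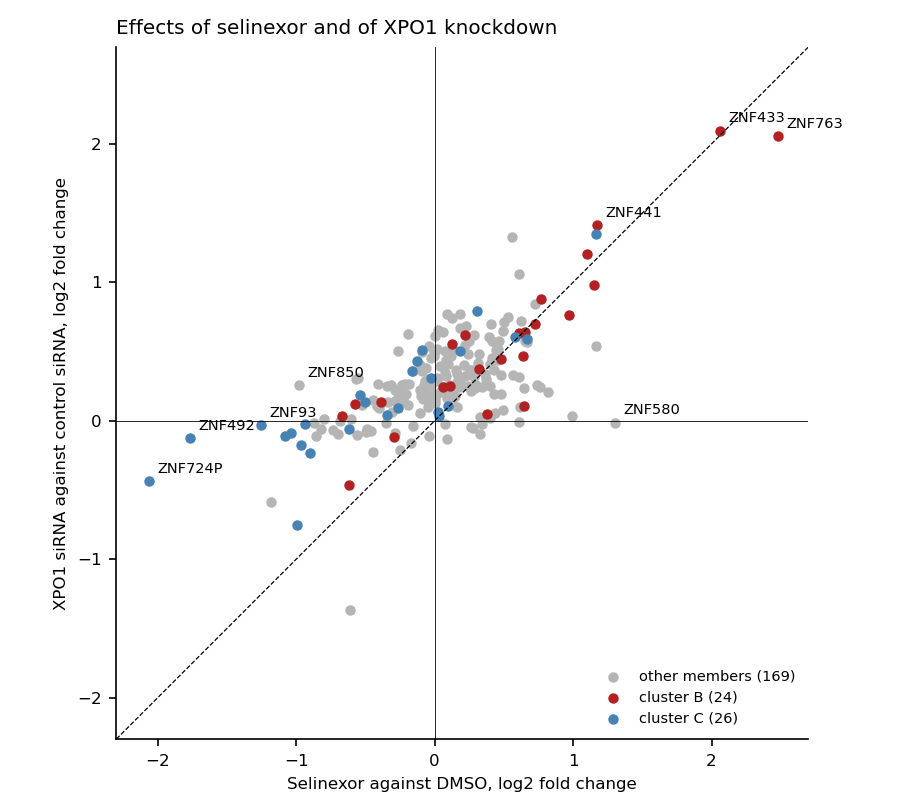
Log2 fold change with selinexor (horizontal axis) against log2 fold change with XPO1 siRNA (vertical axis) for 219 members tested in both, with cluster B in red, cluster C in blue and the line of equal effects dashed. The largest rises of cluster B lie near the dashed line, ZNF724P, ZNF492 and ZNF93 lie far to its left, and most other members lie above it.

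The clearest of the 9 opposite genes was ZNF850 of cluster E (minus strand, 37205285 to 37263728), with 29 fingers. It fell from 1909, 1895 and 1988 with DMSO to 816, 1059 and 1086 with selinexor and rose from 1189.7, 1327 and 1345 to 1533, 1623 and 1459.6 with XPO1 siRNA. The log2 fold changes were -0.98 (limma adjusted p = 2.8e-04) and 0.26 (limma adjusted p = 0.0016), and their difference was -1.24 (SE 0.138, limma adjusted p = 2.7e-05). The same pattern was called in ZNF551 (-0.55 and 0.31), ZNF829 (-0.57 and 0.30), ZNF180 (-0.29 and 0.23) and ZNF121 (-0.41 and 0.27). The selinexor call of ZNF180 was lost with equal totals (limma adjusted p = 0.069), after removing the GC trend (0.34) and without any 1 of the DMSO libraries (up to 0.10). That of ZNF829 was lost without DMSO replicate 2 (adjusted p = 0.053), and its knockdown call without any of 3 single libraries (up to 0.089). That of ZNF121 was lost without any 1 of the DMSO libraries (up to 0.10) or without selinexor replicate 3 (0.057).

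The test of the difference between the effects placed 69 of 219 members lower with selinexor than with knockdown and 6 higher, beside 20.2% and 11.6% of all 17308 genes. The members' median difference was -0.24, beside -0.07 for all genes. Without selinexor replicate 1 there were 79 and 14, beside 27.5% and 16.5% of all genes. With the GC trend removed there were 70 and 16, beside 27.1% and 14.6%, and the members' median was -0.15. Cluster C held 16 of the 69, among 26 tested, with a median of -0.54. Cluster B held 3, among 24, with a median of -0.08. Besides ZNF580 and ZNF600, the 6 higher genes were ZNF792 of cluster D (0.48), ZNF491 of cluster B (0.54), ZNF835 of cluster H (0.42, lost without DMSO replicate 2 at an adjusted p of 0.052) and ZNF536 (0.42), a neuronal gene outside the clusters. Doses and times differ between the arms, at 24 h of drug and 72 h after nucleofection.

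ZNF genes on other chromosomes showed rises in the knockdown as well. Of 234 tested, 117 rose and 26 fell, with a median of 0.18, and with selinexor 49 rose and 49 fell of 234, with a median of 0.003. Other genes of chromosome 19 had 232 rises and 244 falls among 886 in the knockdown, and 288 and 166 among 910 with selinexor. The share of rises in the knockdown was thus 137 of 220 for the members, 117 of 234 for ZNF genes elsewhere and 232 of 886 for the other genes of chromosome 19. No test was made between these groups. Over all genes tested, 25.9% rose and 28.6% fell in the knockdown, and 22.9% rose and 26.3% fell with selinexor.

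By protein feature, 109 of 163 members with a KRAB-like stretch (66.9%) rose in the knockdown and 4 fell, while of 51 coding members without it 24 (47.1%) rose and 3 fell. With selinexor the counts were 30 rises and 27 falls of 164 and 16 rises and 11 falls of 52, or 18.3% and 30.8% higher. Of all genes 22.9% rose and 26.3% fell with selinexor. With the GC trend removed the shares higher with and without a KRAB-like stretch became 41.7% and 32.7%, beside 25.9% of all genes, so their order turned. Members taken as lacking KRAB by common knowledge numbered 18, of which 6 rose and 2 fell with selinexor, with a median of 0.36, and 4 rose and 1 fell in the knockdown, a share of rises near the 25.9% of all genes. Among them ZNF579 rose with selinexor from 291 ± 13.1 to 453 ± 108, ZNF428 from 1519.9 ± 74.6 to 1979.7 ± 344 and ZNF536 from 544 ± 28.6 to 769.9 ± 90.6. The calls of ZNF579 and ZNF428 were lost with the GC trend removed (limma adjusted p = 0.091 and 0.11). ZNF576 fell from 498 ± 20.6 to 340.2 ± 62.0. The number of fingers had little relation to the log2 fold change across members, with Spearman correlations of -0.02 with selinexor and 0.07 with knockdown.

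Members said to bind transposable elements were lower with selinexor in 4 of 7 tested and higher in 0, with a median of -0.34, where 26.3% of all genes fell and 22.9% rose. These were ZNF93, ZNF100, ZNF43 (2399 ± 41.7 with DMSO and 1701 ± 251 with selinexor) and ZNF675 (-0.34), the last lost with the GC trend removed (limma adjusted p = 0.28). All 4 lie in cluster C. In the knockdown 4 of 8 rose, among them ZNF611 (0.26), ZNF765 (0.30) and ZNF91, and 1 fell. Of all genes 25.9% rose there and 28.6% fell. The fall was ZNF534, a low gene at 14.4 ± 2.19 with control siRNA and 6.92 ± 2.17 with XPO1 siRNA. It was under the filter in the selinexor table, so the lists tested in the 2 comparisons differ by this gene.

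Members whose promoters are known for methylation in tumours had 3 rises and 2 falls of 10 with selinexor, near the 22.9% and 26.3% of all genes, and 6 rises and no falls of 10 in the knockdown, where 25.9% of all genes rose and 28.6% fell, with a median of 0.43. ZNF667 rose from 1023, 1032 and 1043 with DMSO to 1372, 1955 and 1652 with selinexor and from 915, 1063 and 945 to 1465, 1401 and 1468 with XPO1 siRNA. ZNF382 rose by 0.36 and 0.33, and ZNF471 by 0.44 and 0.56. The selinexor call of ZNF382 was lost without any 1 of 5 single libraries, with adjusted p up to 0.12, and that of ZNF471 without DMSO replicate 3 (0.064). ZNF569 and ZNF331 fell with selinexor, with log2 fold changes of -0.70 and -0.73.

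Members with a named cellular role had 3 rises and 3 falls of 13 with selinexor (23.1% each, near the 22.9% and 26.3% of all genes). In the knockdown 8 of 13 (61.5%) rose and 1 fell, beside 25.9% and 28.6% of all genes. ZNF420, described as a regulator of p53, rose in the knockdown from 1021, 1044 and 956 to 1267, 1232 and 1288 (0.33, limma adjusted p = 7.7e-05). ZNF8 rose there from 486 ± 6.84 to 625 ± 33.6 (0.36) and ZNF568 from 381 ± 30.4 to 521 ± 11.6 (0.45). ZNF175 rose with selinexor from 352 ± 22.8 to 464 ± 15.7 (0.40), a call lost without DMSO replicate 2 (limma adjusted p = 0.052). Of genes not on this list, ZNF846 was the only member of cluster A that rose with selinexor (64.2 ± 6.26 to 110.3 ± 19.3, 0.76). ZNF284 had the rise of smallest p with selinexor in cluster F (253, 247 and 224 to 333, 365 and 411, 0.61). ZNF526, taken as lacking KRAB, rose in the knockdown from 596 ± 21.3 to 718 ± 25.3 (0.27).

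Many genes of a broad list of KRAB co-repressors and other chromatin factors were lower with selinexor. Of 41 tested genes of this list, 22 (53.7%) fell and 1 rose with selinexor, with a median of -0.34, beside 26.3% and 22.9% of all genes. Among the kinds of partner named at the start, the heterochromatin genes CBX1, CBX3 and CBX5 fell (-0.80, -0.74 and -0.98). The deacetylases HDAC1 and HDAC2 did not pass the threshold with selinexor (limma adjusted p = 0.85 and 0.18). In the knockdown CBX1, CBX5 and HDAC2 fell (-0.27, -0.20 and -0.09). CBX3 and HDAC1 did not pass the threshold there (limma adjusted p = 0.27 and 0.51). Of the whole list, 18 (43.9%) fell and 11 (26.8%) rose in the knockdown, with a median of -0.06. Of all genes 28.6% fell and 25.9% rose, so the share of rises was near that of all genes. UHRF1, which guides maintenance methylation of DNA, fell from 9742 ± 101 with DMSO to 1799 ± 257 with selinexor (-2.45, limma adjusted p = 1.4e-06) and from 9662 ± 531 to 7153 ± 202 in the knockdown (-0.43). The histone methyltransferases SUV39H1 and SUV39H2 had log2 fold changes of -1.60 and -1.38 with selinexor (limma adjusted p = 7.6e-06 and 3.4e-05) and of -0.57 and -0.25 in the knockdown (limma adjusted p = 1.1e-06 and 3.9e-04). RBBP7, a histone chaperone, fell in both, with -1.17 and -0.45. GATAD2B, a subunit of a deacetylase complex, was the gene that rose with selinexor (0.67), a call lost without selinexor replicate 3 (limma adjusted p = 0.065) or DMSO replicate 2 (0.075) or 3 (0.053).

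TRIM28 itself went from 8972 ± 242 with DMSO to 6403 ± 1244 with selinexor (-0.50, limma adjusted p = 0.012), a call lost without DMSO replicate 2 (0.054). In the knockdown it went from 9203 ± 509 to 8580.0 ± 163 (-0.10), a call just under the threshold that was lost with equal totals (limma adjusted p = 0.86). SETDB1 had 0.04 with selinexor (limma adjusted p = 0.69) and rose by 0.23 in the knockdown (limma adjusted p = 1.2e-04). Among the 11 rises of the knockdown were ATRX, a chromatin remodeller (0.49), MPHOSPH8 (0.50), MORC2 (0.35) and TRIM24 (0.31).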

How the data were processed

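The members, gene lists and named-gene rule were chosen with earlier results of these data known. Per the labels' protocols, the libraries from IMR5 cells were of stranded total RNA. Per the submitters' processing notes, the tools were STAR 2.7.3a, Partek and DESeq2, with hg19 as the build. Annotation, counting options and strand use were not given in the sources used here. In unit the files hold a signal, the authors' normalized counts, scaled within the selinexor table (20029 genes) and, apart from it, within the knockdown table (19610 genes). Low values were whole multiples of a step in 62.0% to 66.8% of cases (0.3 to 60, tolerance 0.02; chance gives 4%), so reads were not recovered and no count model was fitted. In the knockdown table, 3 columns matched no sample and were not used.

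Testing used limma 3.58.1 in R 4.3.3 on genes whose mean over the 6 libraries was 10 or more (intensity trend, log2(value + 1), two-sided, Benjamini-Hochberg, 0.05), with the group as the only term. The difference of effects used 12 libraries and 4 group means. On simulated data the test recovered, for changes of 1.5-fold, 2-fold and 4-fold, 93.5%, 98.2% and 100% of the genes for selinexor (18102 genes, 7 false calls of 17902), and 87.7%, 96.8% and 100% for knockdown (17612 genes, 11 of 17412). For the difference, 100% of 75 genes differing 4-fold were recovered (17304 genes, 18 false calls of 16911). The simulation gave every gene in both groups the same spread, the median of the control libraries. Selinexor libraries correlated less well with each other than DMSO libraries did. The figures for selinexor and for the difference may therefore be better than in the real data. Since 1 spread for all genes leaves out differences between genes, the figures for knockdown may be too.

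A new cluster began where the next start lay over 1 Mb away. Named were XPO1; per comparison the 8 largest rises and falls among called members whose higher group averaged 50 or more and whose libraries did not overlap; per cluster the called member of smallest p in each direction; up to 5 genes called in both comparisons for each pair of signs; 5 differences per sign; the 5 highest means; and up to 3 or 4 members of each list per direction. ZNF20, ZNF440, ZNF443, ZNF490, ZNF491, ZNF563, ZNF564, ZNF627, ZNF700, ZNF709 and ZNF844 of cluster B fall outside it and were named after their values were seen. The same holds for CBX1, CBX3, CBX5, HDAC1 and HDAC2. Proteins were to be read from a RefSeq protein table, which was not used here. Instead GENCODE 29 coding sequences were translated by a script (225 of 225 members matched, 1 through a RefSeq synonym), with fingers found by pattern and KRAB-like stretches sought in the first 200 residues. GC content was known for 81.6% of the selinexor table's tested genes and 82.5% of the knockdown's. Tables and figures used matplotlib 3.10.9, numpy 2.4.6, pandas 2.3.3 and Python 3.11.15. Alternatives changed the pseudocount (0.5, 5), the filter (none, or a mean of 50), the scaling (equal totals, or a trimmed mean at 30%), the replicates (each left out, or a block), the intensity trend (none), GC or length trends (removed) and the cluster gap (0.5 or 2 Mb).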

Additional observations from a re-analysis of the deposited data

How the results depend on the processing

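Replicate numbers did not pair the samples: deviations of same-numbered libraries correlated at 0.009, 0.119 and -0.042 with selinexor and at -0.031, -0.020 and -0.104 in the knockdown. With a replicate block, the members had 49 rises and 40 falls with selinexor, 135 and 7 in the knockdown, and 6 and 66 in the difference of effects, with medians of 0.0761, 0.2566 and -0.2405 as without it. With each replicate number once in every group, a block cannot move a log2 fold change, and only the calls could differ. The unchanged medians, those of cluster B (0.5443 and 0.5122) and cluster C (-0.2684 and 0.0791), and XPO1 (0.0851 and -2.114) were therefore fixed in advance.

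With the trend on GC content removed, 88 members rose with selinexor and 16 were higher in the difference, the knockdown median was 0.2786, the median of cluster C turned to 0.0347 with selinexor and was 0.1313 in the knockdown, and XPO1 with selinexor reached 0.3279. With equal totals the knockdown had 4 falls and a median of 0.3468, with 0.602 in cluster B and 0.1693 in cluster C; the length trend removed gave a knockdown median of 0.2338. A gap of 2 Mb put clusters A and B together, with medians of 0.2684 and 0.2494, and a gap of 0.5 Mb gave the larger part of cluster C medians of -0.1282 with selinexor and 0.1602 in the knockdown. The cause of these moves was not tested.

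Leaving out single libraries gave 33 to 85 rises, 27 to 47 falls and medians of 0.0347 to 0.1402 with selinexor, the 85 without selinexor replicate 1. In the knockdown it gave 121 to 141, 6 to 7 and 0.2388 to 0.2741, and for the difference 4 to 14 higher, 53 to 87 lower and -0.298 to -0.1805. Medians ranged from 0.4682 to 0.6449 and 0.4876 to 0.5544 in cluster B, from -0.3531 to -0.1431 and 0.0491 to 0.1178 in cluster C, with selinexor and knockdown in turn. XPO1 ranged from -0.0188 to 0.2484 and from -2.1232 to -2.0998. Where 1 arm kept 2 libraries, its spread was pooled with the other. Over all named genes and alternatives, a call was lost in 56 cases with selinexor, 57 in the knockdown and 81 for the difference, gained in 23, 11 and 23, and reversed in none. Depth is estimated, so no counting intervals are given.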

Other observations

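Neighbouring members within a cluster had weakly similar changes. Over 200 pairs of adjacent genes tested with selinexor the log2 fold changes had a Pearson correlation of 0.21, and over 198 pairs in the knockdown 0.18. These pairs share genes and libraries, and some members overlap, so the values are descriptions without a test. Members with higher values in the controls had lower log2 fold changes, with Pearson correlations of -0.42 with selinexor (222 members) and -0.20 with knockdown (220 members), where the control level enters both axes.

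Other genes with a zinc finger symbol outside the rule on chromosome 19 had 8 rises and 2 falls of 18 with selinexor, and 7 rises and 1 fall of 17 in the knockdown. The rule's 7 pseudogenes had 6 tested in each table, of which 3 rose and 1 fell with selinexor and 4 rose and 1 fell with knockdown. In 45 members more than 5% of the 50-base stretches of the longest transcript were also in another zinc finger gene. Their knockdown counts were 30 rises and 3 falls of 43, against 107 and 5 of 177 for the other members. Over all genes tested, 22.9% rose and 26.3% fell with selinexor, and 25.9% rose and 28.6% fell in the knockdown.

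A CCAAT box on the strand of the gene, beginning 90 to 40 bases before the start, was found in 20 of 22 windows of cluster C, 11 of 23 of cluster B, 16 of 51 of cluster H and 2 of 29 of cluster G, and in 0 windows of clusters A, D, E and F. Of all 27305 windows, 6.99% held it. This range was chosen after the printed windows had been seen. By motif, 58 of 90 members with an ETS motif rose in the knockdown and 59 of 101 without it, beside 25.9% of all genes. With selinexor the rises were 16 of 90 and 23 of 102, neither share above the 22.9% of all genes.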
